A study of Mus musculus with 4 samples.

Results

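In astrocytes (ASTs), 1250 autosomal Rad21 peaks of 200 bp or more had no counterpart among the peaks called in neural stem cells (NSCs). A site is here a called peak. These AST-only sites were chosen by width and overlap: a peak of the AST list counted when it was at least 200 bp wide, lay on chromosomes 1 to 19 and shared not a single base with any peak of the NSC list. They were 1250 of 16157 AST peaks, of which 15707 lay on autosomes, and the AST and NSC lists together held 34562 peaks. Both lists came from mouse cells. NSCs were cloned from embryonic stem cells and kept dividing in serum-free medium with EGF and FGF, and ASTs were their post-mitotic progeny, cultured with BMP, FGF and laminin. Neither carried a further treatment, and both were precipitated with the same antibody against Rad21. The 4 libraries were a Rad21 precipitate and an input of each cell type. Without replicates, differences between ASTs and NSCs have no measured error, and no p-value was computed. The depth of the libraries was not stated, and peak lists hold no expression values, so the cell types were not checked against marker genes.

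Rad21 is the kleisin subunit of cohesin, the ring-shaped complex that holds sister chromatids together in dividing cells and that gathers interphase chromatin into loops. In mammalian interphase chromosomes most cohesin peaks lie at sites bound by CTCF, where loop extrusion is halted, and these sites are largely common to different cell types. Cohesin peaks that are not at CTCF sites are often weaker and are found at enhancers and promoters. A ChIP-seq peak is the interval in which DNA fragments precipitated with the antibody pile up beyond the local background, and its summit is the base where the pile-up is highest. Fold enrichment is the pile-up at the summit divided by that background, so it ranks peaks inside a list.

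Of all 15707 autosomal AST peaks, 3886 (24.7%) overlapped no NSC peak, and of the 8220 that were 200 bp wide or more, 1250 (15.2%) did not. Since these counts are what the choice was made on, they describe the sites and are not a result about them. Further sets were used for comparison, all on autosomes: the 6970 AST peaks of 200 bp or more that did overlap an NSC peak (shared AST peaks), the 2636 AST-only peaks under 200 bp, and the 2192 NSC-only peaks of 200 bp or more, which meet the same rule with the lists exchanged. The NSC-only set was thus the larger of the mirrored sets. The ranges in parentheses after shares are 95% Clopper-Pearson (exact binomial) intervals and reflect counting error alone.

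The AST-only sites were alike in width. Their median width was 222 bp with quartiles of 217 and 227 bp, so that the middle part of the distribution spanned 10 bp. In shared AST peaks the median was 257 bp with quartiles of 225 and 306 bp, a span of 80.75 bp, and in NSC-only peaks it was 242 bp with quartiles of 219 and 283 bp, a span of 64 bp. The commonest single width was 222 bp, found in 92 AST-only sites. A width of 220 to 229 bp was found in 561 AST-only sites (44.9%), against 659 shared AST peaks (9.45%) and 254 NSC-only peaks (11.6%). Only 43 AST-only sites (3.44%) reached 300 bp, against 1930 shared AST peaks (27.7%) and 405 NSC-only peaks (18.5%). The lower limit of 200 bp was set by the rule, which named no width near 222 bp and no upper limit. The demand for no overlap was still tied to width through strength. Of AST peaks of 200 bp or more, 23.1% were AST-only below a fold enrichment of 8 and 4.94% at 20 or more. Width went with fold enrichment, so widths are also compared at like fold enrichment below.

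**Figure D1:**
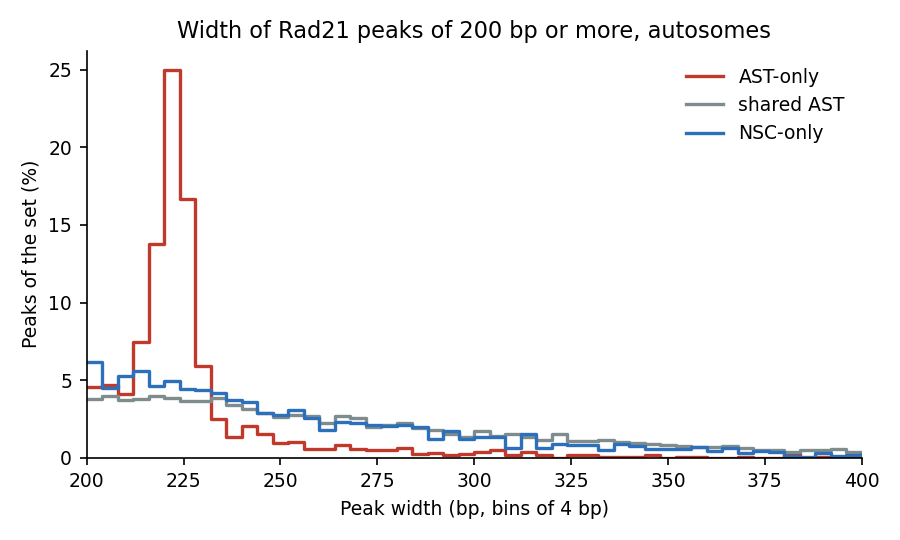
Width of Rad21 peaks of 200 bp or more on autosomes (horizontal axis, bp, in bins of 4 bp, drawn to 400 bp) as a percentage of each set (vertical axis), with AST-only peaks in red, shared AST peaks in grey and NSC-only peaks in blue. The AST-only peaks form a narrow spike around their median of 222 bp, and neither of the other sets has one.

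The limit of 200 bp fell below this spike and not within it. Just inside the limit, 69 AST-only sites were at most 4 bp wider than it, with fold enrichments of 3.38 to 11.41 and a median of 6.84. Just outside it, 75 AST-only peaks were at most 5 bp narrower, with fold enrichments of 3.12 to 10.65 and the same median. On the side of the overlap, 3 AST-only sites had an NSC peak within 100 bp, and 22 shared AST peaks of 200 bp or more overlapped their NSC peak by no more than 100 bp. Few sites lay close to the limit of overlap.

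The AST-only sites were of moderate strength. Their fold enrichment ranged from 1.65 to 32.7, with a median of 8.75 (quartiles 6.84 and 11.79), against 10.65 (8.11 and 13.93) in shared AST peaks and 6.02 (5.035 and 6.84) in AST-only peaks under 200 bp. The pile-up recovered for the summit was 11 to 120 fragments, with a median of 27 (quartiles 21 and 34), against a median of 31 (25 and 41) in shared AST peaks. Width went with fold enrichment, with a Spearman's rho of 0.37 across the 6970 shared AST peaks and 0.18 across the 1250 AST-only sites, all peaks of 1 library. Peaks were therefore compared at like fold enrichment.

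Width rose steeply with fold enrichment in shared AST peaks and barely in AST-only sites. In shared AST peaks the median width was 236 bp below a fold enrichment of 8, then 241 bp at 8 to 10, 261 bp at 10 to 15, 298 bp at 15 to 20 and 346 bp at 20 or more. In AST-only sites the medians of the same bins were 220, 220, 223, 227 and 233.5 bp, with 516, 258, 358, 98 and 20 sites. The quartiles of the 98 AST-only sites at 15 to 20 were 225 and 229.75 bp, against 256 and 347 bp in the 943 shared AST peaks of that bin. NSC-only peaks followed the shared AST peaks: their medians ran from 236 bp in the lowest bin to 307 bp in the 55 peaks at 15 to 20 and 318 bp in the 7 peaks at 20 or more. Fold enrichments of the NSC list are set by another library and background than those of ASTs.

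**Figure D2:**
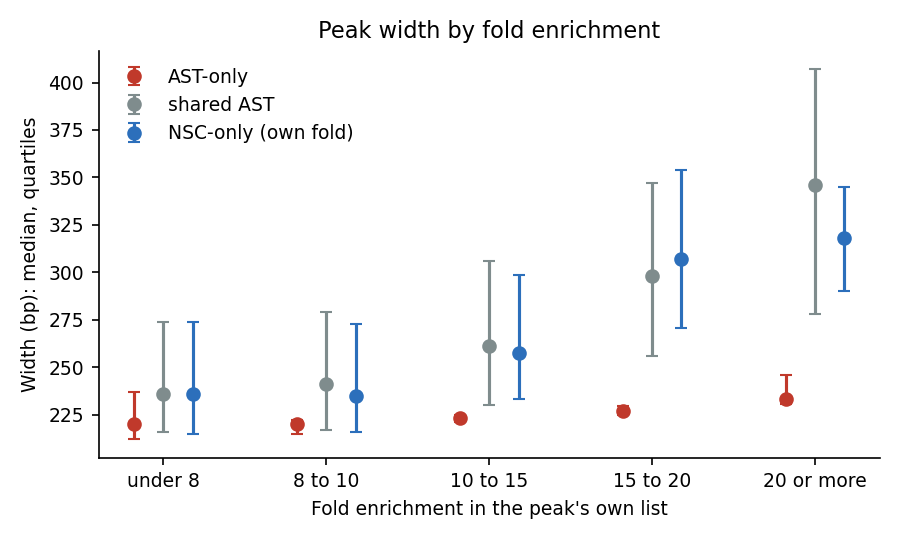
Median width (vertical axis, bp, drawn from about 200 bp) with quartiles as bars, by bin of fold enrichment in the peak's own list (horizontal axis), for AST-only (red), shared AST (grey) and NSC-only (blue) peaks of 200 bp or more. The red medians stay between 220 and 233.5 bp while the grey ones climb from 236 to 346 bp.

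Among strong peaks the same was seen without the limit on width. All 508 autosomal AST-only peaks of fold enrichment 10 or more, of whatever width, had a median of 224 bp with quartiles of 221 and 227 bp. The 4285 shared AST peaks of that strength had a median of 266 bp with quartiles of 227 and 322 bp. Of the 508 AST-only peaks, 476 were 200 bp wide or more, so the limit of 200 bp left out few peaks of this strength. Weaker AST-only peaks were often narrower. The 2636 AST-only peaks under 200 bp had a median width of 142 bp and a median fold enrichment of 6.02. This comparison therefore covers strong peaks only.

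The position of the summit, which the rule did not use, was also alike. The offset of the summit from the midpoint of the peak, negative towards lower coordinates, had a median of -1 bp in AST-only sites, with quartiles of -8 and 4 bp. In shared AST peaks the quartiles were -19.5 and 14.5 bp around a median of -2 bp, and in NSC-only peaks -20.5 and 15 bp around -2.25 bp. A wider peak leaves more room for its summit, so peaks of like width, within 15 bp of 230 bp, and of like fold enrichment were compared. Inside that range of width the shared AST peaks were spread more evenly than the AST-only sites, so the room for the summit was not made fully equal. A summit within 10 bp of the AST-only median offset was called centred. At a fold enrichment of 8 to 10, 148 of 186 AST-only sites were centred (79.6%, 73.1 to 85.1), against 247 of 451 shared AST peaks (54.8%, 50.04 to 59.4). At 10 to 15 it was 287 of 326 (88.0%, 84.0 to 91.4) against 452 of 679 (66.6%, 62.9 to 70.1). At 15 to 20 it was 90 of 93 (96.8%, 90.9 to 99.3) against 131 of 161 (81.4%, 74.5 to 87.1). These intervals did not overlap. Below 8, the centred shares were 61.8% (55.7 to 67.7) and 44.5% (40.4 to 48.6). At 20 or more the intervals overlapped, with 14 of 14 AST-only sites (100%, 76.8 to 100) and 56 of 59 shared AST peaks (94.9%, 85.9 to 98.9).

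**Figure D3:**
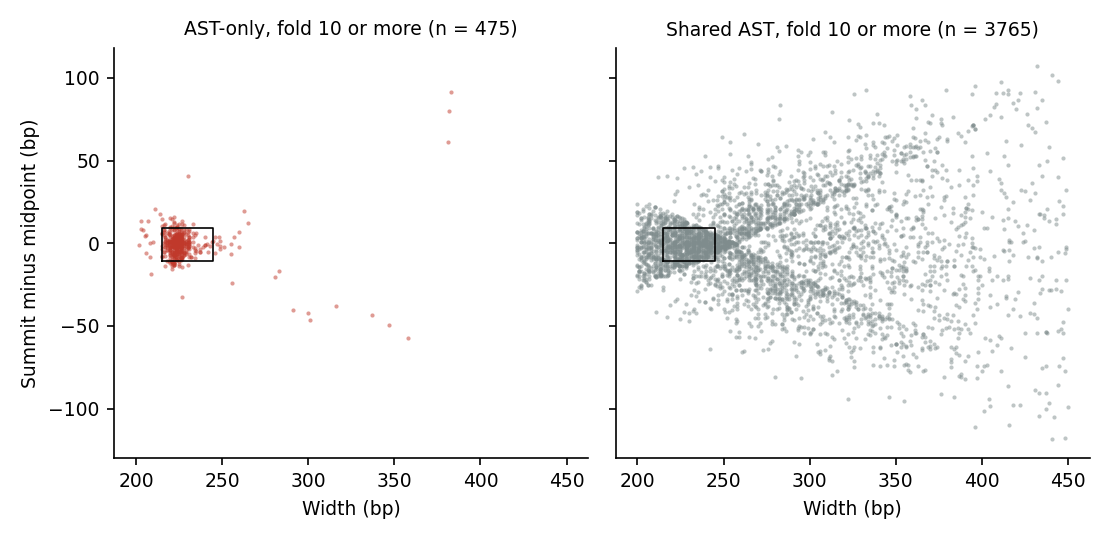
Distance of the summit from the peak midpoint (vertical axis, bp) against width (horizontal axis, bp) for the stronger peaks (fold enrichment from 10 up), with 1 point per peak, 475 of 476 AST-only sites on the left in red and 3765 of 3892 shared AST peaks on the right in grey (the others lie beyond 450 bp or 120 bp). The box marks a width within 15 bp of 230 bp and a summit within 10 bp of the AST-only median, where most AST-only sites crowd and the shared peaks fan out to both sides.

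Peaks within 15 bp of 230 bp in width and with a centred summit are called uniform from here on. They made up 701 of the 1250 AST-only sites (56.1%, 53.3 to 58.9), against 22.5% of all 8220 autosomal AST peaks of 200 bp or more, 1148 of 6970 shared AST peaks (16.5%, 15.6 to 17.4) and 371 of 2192 NSC-only peaks (16.9%, 15.4 to 18.6), for which the offset was taken from the NSC-only median. The limits of the class were chosen with earlier results of these data known. Within the AST-only sites the uniform share rose with strength, from 31.4% (27.4 to 35.6) below a fold enrichment of 8 to 57.4% (51.1 to 63.5) at 8 to 10, 80.2% (75.7 to 84.2) at 10 to 15 and 91.8% (84.5 to 96.4) at 15 to 20. It was 14 of 20 (70.0%, 45.7 to 88.1) at 20 or more. In shared AST peaks it stayed between 13.9% and 18.1% in the 5 bins. Within the uniform sites width still went with fold enrichment (Spearman's rho 0.46 across the 701), over a narrow range: their quartiles of width were 220 and 226 bp. The uniform sites were stronger than the other 549 AST-only sites, with a median fold enrichment of 10.65 against 7.22 and a median pile-up of 31 against 21 fragments.

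Seen from the side of all AST peaks, the uniform ones were missing from the NSC list at nearly the same rate up to a fold enrichment of 20, and at a lower rate above it. Of uniform AST peaks, 38.2% (33.6 to 43.0) were AST-only below a fold enrichment of 8, then 37.5% (32.7 to 42.4) at 8 to 10, 38.8% (35.3 to 42.5) at 10 to 15 and 40.7% (34.2 to 47.5) at 15 to 20, and the share fell to 14 of 70 (20%, 11.4 to 31.3) at 20 or more. Among the remaining AST peaks of 200 bp or more the share fell with strength, from 19.6% (17.8 to 21.5) below 8 to 8.96% (7.42 to 10.7), 3.25% (2.55 to 4.08) and 0.976% (0.422 to 1.91) in the next 3 bins, and was 6 of 335 (1.79%, 0.660 to 3.86) at 20 or more. These shares rest on the overlap that chose the sites and are given as a description. Whether the common shape belongs to the AST library or to Rad21 binding in ASTs cannot be told apart with 1 library per cell type.

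**Figure D4:**
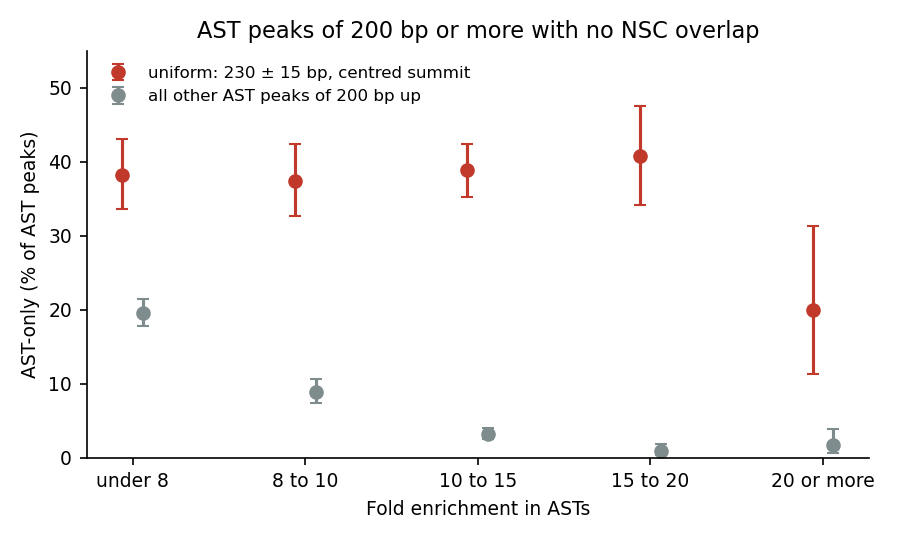
Share of autosomal AST peaks of 200 bp or more that overlapped no NSC peak (vertical axis, percent) by fold enrichment in ASTs (horizontal axis), for uniform peaks (red) and all others (grey), with exact 95% binomial intervals as bars. The red points lie between 37.5% and 40.7% up to a fold enrichment of 20 and at 20% above it, while the grey points fall from 19.6% to under 2%.

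Median local background was the same in AST-only sites and shared peaks, but a high background was more frequent in AST-only sites. The background recovered for AST-only sites had a median of 2.63 fragments (quartiles 2.63 and 3.16), the same as in shared AST peaks. This value was the usual level of the list and the lower quartile of both sets. Equal medians therefore do not show equal local backgrounds. The background was more than 1.1 times the usual level of the list at 428 AST-only sites (34.2%, 31.6 to 36.9) and at 2446 shared AST peaks (35.1%, 34.0 to 36.2). A background above 10 fragments was found at 16 AST-only sites (1.28%, 0.733 to 2.07) and 11 shared AST peaks (0.158%, 0.0788 to 0.282). Of these 16 sites, 5 lay within 59.5 kb near the start of chromosome 11, at 3034441 to 3093909, over a background of 30.04 to 60.9 fragments and with fold enrichments of 1.65 to 2.33. Near the start of chromosome 17 lay 2 more, at 3082636 to 3084380, and near that of chromosome 18 lay 1, at 3010151 to 3010475. At the far end of the peaks on chromosome 1 lay 1, at 197067703 to 197068057. Near that end on chromosome 19 lay 1, at 61275535 to 61275801. Another lay further inside chromosome 11 at 51269059 to 51269308, and 4 of the 16 were uniform.

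The 10 AST-only sites of highest fold enrichment, 22.43 to 32.7, lay on 5 chromosomes and included 7 uniform ones. All positions are of the mouse build mm9. The highest was a peak of 246 bp on chromosome 4 at 120697404 to 120697649, with a fold enrichment of 32.7 from a pile-up of 86 fragments and a summit offset of 4 bp. It was 1 bp too wide for the uniform class. The next, on chromosome 4 at 127573359 to 127573674, differed from the others: it was 316 bp wide, its summit offset was -38 bp, and the nearest NSC peak was 527 kb away. Its fold enrichment was 31.94.

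The following pair were uniform sites, with distances to an NSC peak between the quartiles of all AST-only sites, 13.1 and 77.7 kb. On chromosome 8 at 108635986 to 108636226, a peak of 241 bp had a fold enrichment of 30.42 and its nearest NSC peak 28.4 kb away. On chromosome 19 at 24282038 to 24282274, a peak of 237 bp had a fold enrichment of 29.66 and its nearest NSC peak 53.97 kb away. The fifth, of 255 bp and fold enrichment 27.0, belonged to a run on chromosome 11 that is described further on.

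The other 5 of the 10 were alike to within a few bases. Widths of 233 bp were found on chromosome 6 at 65121715 to 65121947, again there at 33274194 to 33274426, and at 46214456 to 46214688 of chromosome 4. A site of 234 bp lay on chromosome 8 at 113022663 to 113022896, and one of 231 bp on chromosome 11 at 75864893 to 75865123. Fold enrichments ran from 23.57 down to 22.43, and no summit lay more than 6.5 bp from its midpoint. The site on chromosome 4 stood only 464 bp from an NSC peak, which was 188 bp wide with a fold enrichment of 10.56 in its own list. Among the 7 uniform sites of the 10, the nearest NSC peak lay from 464 bp to 81.3 kb away.

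The widest AST-only sites had none of this regularity. The widest, on chromosome 13 at 46714822 to 46715376, spanned 555 bp with a fold enrichment of 9.13. It was followed by one of 531 bp (10.27) on chromosome 16, at 22509021 to 22509551, and one of 496 bp (9.44) on chromosome 9, at 49788790 to 49789285. Their summit offsets were 20.5, -139.5 and 122 bp. They were of similar strength to the median AST-only site but more than 2 times as wide.

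Most AST-only sites lay within 100 kb of an NSC site, and few within 5 kb. The median distance to the nearest NSC peak, from edge to edge, was 33.7 kb (30.7 to 37.1, an interval from the order of the distances), with quartiles of 13.1 and 77.7 kb. The nearest shared AST peak was a median of 49.1 kb away (45.8 to 54.5). For comparison, the nearest NSC peak other than the one they overlapped was a median of 24.7 kb (23.7 to 25.7) from shared AST peaks. It was 29.3 kb (27.5 to 31.8) from AST-only peaks under 200 bp, and NSC-only peaks were 35.2 kb (32.7 to 38.1) from the nearest AST peak. AST-only sites were therefore about as far from the other list as their mirror set was, and farther than shared peaks were from a further NSC peak. An NSC peak within 100 kb was found for 1009 of 1250 AST-only sites (80.7%, 78.4 to 82.9).

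Few AST-only sites were close neighbours of an NSC peak. Within 1 kb there was an NSC peak for 38 (3.04%, 2.16 to 4.15) and within 5 kb for 132 (10.6%, 8.91 to 12.4). The share within 5 kb was 55 of 701 in uniform sites (7.85%, 5.97 to 10.1) and 77 of 549 in the other AST-only sites (14.0%, 11.2 to 17.2). It was 17.0% (15.6 to 18.5) in AST-only peaks under 200 bp and 19.1% (18.2 to 20.01) in shared AST peaks for a further NSC peak. At 5 kb the interval of the uniform sites did not overlap that of the other AST-only sites, the AST-only peaks under 200 bp or the shared AST peaks. At other distances it did overlap that of the other AST-only sites, with 2.28% (1.31 to 3.68) against 4.01% (2.53 to 6.004) within 1 kb and 18.8% (16.0 to 21.9) against 23.3% (19.8 to 27.1) within 10 kb.

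The nearest of all was a uniform site on chromosome 15 at 61910531 to 61910756 (226 bp, fold enrichment 5.7), 6 bp from an NSC peak of 227 bp at 61910763 to 61910989. Next came a site on chromosome 7 at 82280285 to 82280494, 65 bp from an NSC peak of 224 bp, and a uniform site on chromosome 4 at 40853746 to 40853965, 80 bp from an NSC peak of 231 bp. In each of these the neighbouring peaks of the cell types lay side by side and were of nearly equal width.

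At the other end, 33 AST-only sites (2.64%) had no NSC peak within 500 kb and 11 had none within 1000 kb. The most isolated was a uniform site of 232 bp near the start of the mapped part of chromosome 9, at 3258747 to 3258978, which was 3410 kb from an NSC peak. A uniform site of 227 bp on chromosome 1 at 118145125 to 118145351 was 2024 kb away, and a uniform site of 226 bp on chromosome 7 at 11647272 to 11647497 was 1947 kb away, with fold enrichments of 9.08 and 12.03. All 3 were uniform, and all 3 had a background of more than 1.1 times the usual level, at 6.32, 4.74 and 3.16 fragments in the same order. Among all AST-only sites, 56.1% were uniform and 34.2% had such a background, so no link is drawn from 3 sites picked as extremes.

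AST-only sites were found on every autosome at like rates. They made up from 11.1% (chromosome 19) to 17.5% (chromosome 11) of AST peaks of 200 bp or more, and the interval included the overall 15.2% on all chromosomes but chromosome 19 (7.90 to 15.05). The uniform share of the AST-only sites ran from 39.2% on chromosome 17 (25.8 to 53.9) to 66.2% on chromosome 5 (53.7 to 77.2). Its interval included the overall 56.1% on all chromosomes but chromosome 17. Both kinds were more frequent where shared peaks were frequent. In 618 windows of 1 Mb without a shared AST peak of 200 bp or more there were 0.112 uniform and 0.0680 other AST-only sites per window, and in 414 windows with 6 or more shared peaks there were 0.471 and 0.423. The rise was 4.22 times for uniform sites, 6.22 times for the others and 5.69 times for AST-only peaks under 200 bp.

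AST-only sites mostly stood apart from one another, though not from AST peaks in general. The nearest AST peak of any kind was a median of 35.3 kb away from edge to edge. It lay within 50 kb for 772 of 1250 AST-only sites (61.8%, 59.0 to 64.5). The nearest other AST-only site was a median of 464 kb away from start to start (427.8 to 508), and 130 of 1250 (10.4%, 8.76 to 12.2) had one within 50 kb. In the larger NSC-only set the median was 236 kb (219.6 to 255) and the share 17.2% (15.6 to 18.8). When neighbouring AST-only sites up to 10 kb apart were joined, 1207 stood alone, 15 pairs were found, and a single run of 3 and a single run of 10 stood out. Of the 43 sites in these runs and pairs, 22 were uniform, a share close to that of all AST-only sites.

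The run of 10 lay on chromosome 11 within 21.4 kb, from 104376720 to 104398075. Its members were spaced 0.75 to 4.15 kb apart, with a median of 1.94 kb. Fold enrichments ran from 3.62 to 27.0 with a median of 11.755, and pile-ups from 20 to 71 fragments, over a background of 2.63 to 5.52 fragments. The run held 6 uniform sites and also the fifth strongest AST-only site of all.

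In order along the chromosome, the run began with its weakest member, a site of 203 bp with a fold enrichment of 3.62 and a summit offset of -81.5 bp. A uniform site of 237 bp (12.87) and a site of 248 bp (11.72) followed, and then the strongest, at 104382736 to 104382990, of 255 bp and a fold enrichment of 27.0 with a summit offset of -0.5 bp. These last 2 were centred but wider than the uniform class. Next stood uniform sites of 216 bp (10.65) and 217 bp (11.79).

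The widest member, of 358 bp (20.15), had a summit offset of -57 bp and lay 745 bp from the only NSC peak within the run, at 104390621 to 104390786. That NSC peak was 166 bp wide with a fold enrichment of 7.33 in its own list. The AST peak over it, of 262 bp, had a fold enrichment of 24.71 in ASTs and counted as shared. The run ended with uniform sites of 225 bp (12.55), 244 bp (11.4) and 216 bp (10.13). A further AST-only site of 300 bp (14.45) stood 35.0 kb from the start of the run. The nearest AST peaks beyond these on either side were shared with NSCs and lay 53.7 kb before and 74.9 kb after the start of the run, with fold enrichments of 6.46 and 4.34. Which gene or genes the run covers was not analysed here.

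**Figure D5:**
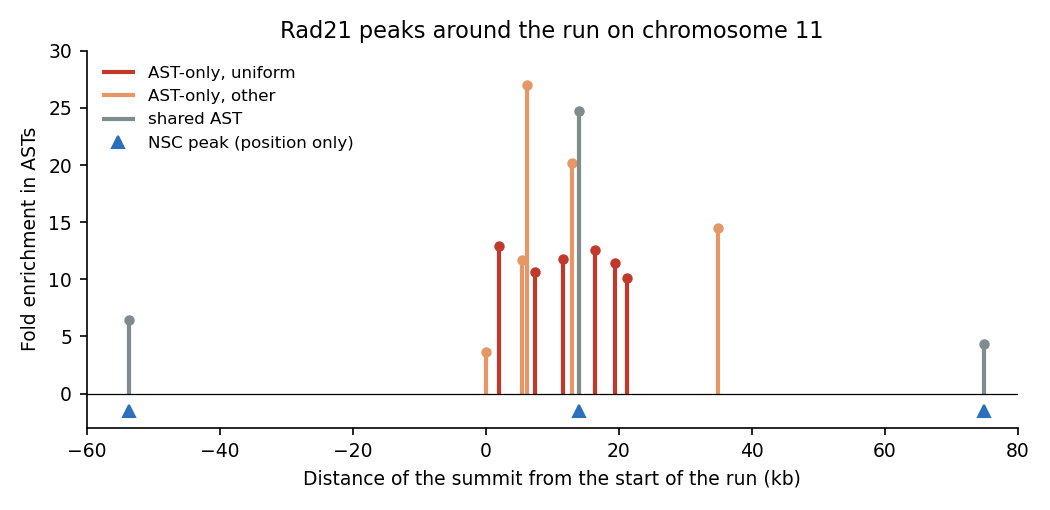
Rad21 peaks around the run on chromosome 11, with the fold enrichment of each AST peak (vertical axis) against the distance of its summit from the start of the run (horizontal axis, kb), uniform AST-only sites in red, other AST-only sites in orange and shared AST peaks in grey, and NSC peaks as blue triangles at their position alone. The AST-only sites crowd between 0 and 21.4 kb around a single shared peak.

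The run of 3, on chromosome 16 from 22508442 to 22518120, was of another kind. Its members were 202, 531 and 257 bp wide with fold enrichments of 9.47, 10.27 and 5.27, none was uniform, and their summit offsets were -23, -139.5 and -88.5 bp. The first and the second of them lay 0.579 kb apart from start to start. The strongest pair, on chromosome 2 from 155566321 to 155575848, joined uniform sites of 229 bp (19.39) and 224 bp (11.64) that lay 9.30 kb apart, with no shared peak between them. Close spacing was thus found with and without the uniform shape.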

How the data were processed

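Rad21 ChIP-seq and input libraries of mouse NSCs and ASTs, 1 of each per cell type, were used. According to the submitters' processing notes, Bowtie 1.0.0 and MACS2 2.0.9 were run on mm9. Settings, read filters and depths are not given in the sources used here. For each cell type the authors deposited 1 peak list, with fold enrichment as a ratio, p and q values as −log10, and a display score that is 10 times the −log10 q. The lowest deposited −log10 q was 1.03 for ASTs and 1.02 for NSCs.

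Peaks were compared by overlap of at least 1 bp, and positions are counted from 1. Pile-up and background were recovered for AST peaks as the whole number of fragments whose Poisson tail gives back the deposited −log10 p, which succeeded within 0.05 for 99.99% of them. Overlap, the uniform class and the recovered background were tested on simulated data, while runs, distances and densities were not. Simulated peaks outside the class all had summits far from the midpoint. Sites named were the 10 strongest, the 3 widest, the 3 nearest to and 3 farthest from an NSC peak, and the 3 largest runs. The sites, classes and comparisons were chosen with earlier results of these data known. A list without a peak is not proof of an unbound site. Genes and sequences were not assigned, since the gene and promoter tables used here are of another build. The work was done in Python 3.11.15 with pandas 2.3.3, numpy 2.4.6, matplotlib 3.10.9 and scipy 1.17.1.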

Additional observations from a re-analysis of the deposited data

How the results depend on the processing

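Alternative settings gave 80 further values, of which 58 stayed within 1.5 times (counts) or within the counting interval (distances and shares) and 22 did not. The number of AST-only sites was 123 with a minimum width of 250 bp and 3886 with none. The median distance to an NSC peak was 37.96 and 48.6 kb at a −log10 q of at least 5 and 10, where NSC peaks are fewer by construction, 24.0 kb with a reciprocal overlap of 0.5, and 30.6 kb at 250 bp. Sites within 50 kb of another numbered 201 with reciprocal overlap, 7 at 250 bp and 969 with no minimum, and 43 lay within 10 kb. Runs and pairs, 17 in the reported setting, numbered 34, 2 and 135 in those settings and 28 with gaps of up to 20 kb. The uniform share was higher in AST-only than in shared AST peaks in 12 of 12 alternatives, at 18.3% to 60.8% against 9.60% to 16.7%, the lowest being without a minimum width. These alternatives reused the same 2 peak lists and mostly the same peaks, so they are not independent of one another. The class could not be formed at 250 bp, beyond its upper limit. Leaving out the chromosome 11 run, an alternative chosen after seeing the data, left 119 sites within 50 kb of another. No paired analysis was possible because each cell type had 1 Rad21 library.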

Other observations

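The X chromosome, which is not part of the set above, held relatively more AST-only sites than the autosomes. Of its 193 AST peaks of 200 bp or more, 95 overlapped no NSC peak (49.2%, 42.0 to 56.5), against 15.2% on autosomes. Of these 95, 72 were uniform (75.8%, 65.9 to 84.0), against 56.1% on autosomes, and their median width was 221 bp. Counted up to the last peak of each chromosome, there were 0.433 uniform AST-only sites per Mb on X and 0.284 over the autosomes, while shared AST peaks of 200 bp or more numbered 0.589 per Mb on X and 2.82 over the autosomes. Uniform AST-only sites were thus denser on X than over the autosomes, while the shared peaks were sparser, as were the other AST-only sites of 200 bp or more, at 0.138 against 0.222 per Mb. Among autosomes the density of uniform sites ran from 0.192 per Mb on chromosome 14 to 0.5096 on chromosome 11. The Y chromosome held 1 AST peak of 200 bp or more, at 427295 to 427520. It was 226 bp wide with a fold enrichment of 14.07 and was also uniform, and the NSC list held 0 peaks there.

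The uniform shape was not confined to AST-only sites. Of 1849 uniform autosomal AST peaks, 1148 overlapped an NSC peak. Among AST-only peaks under 200 bp, 709 of 2636 had the shortest width found in the AST list, 129 bp. Of all 15707 autosomal AST peaks of any width, 1143 had it. Of these 1143, 709 were thus AST-only, while 24.7% of all autosomal AST peaks were. This width was more frequent in AST-only peaks but not confined to them.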
